A study of Mus musculus with 8 samples.

Results

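The cluster histone genes are the many near-identical, mostly intronless genes that encode the bulk of the histones, and they are named here by the Hist symbols of the GRCm38 annotation. This family was chosen with earlier results of these data known. Every identifier whose symbol starts with Hist, a digit and h was taken, without use of any expression value, and sorted by histone class (H1, H2A, H2B, H3 and H4) and by gene cluster. The annotation holds 70 such genes, and 62 of them were among the 20172 identifiers of the table: 6 H1, 16 H2A, 16 H2B, 11 H3 and 13 H4 genes. By cluster, 50 of the 62 belonged to Hist1 on chromosome 13, 8 to Hist2 on chromosome 3, 3 to Hist3 on chromosome 11 and 1 to Hist4 on chromosome 6. The other 8 genes (Hist1h2aa, Hist1h2aj, Hist1h2al, Hist1h2ba, Hist1h2bh, Hist1h2bm, Hist2h2aa2 and Hist2h3c1) were not analysed here.

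The libraries came from TNFR2+ and TNFR2- Tregs, which are regulatory T cells with and without surface TNF receptor type II, sorted from the spleen of Foxp3 YFP-cre mice. These mice carry YFP and Cre at the Foxp3 locus, so that Tregs can be sorted by their fluorescence, and all 8 libraries, 4 of each population, share this genotype, tissue and lack of treatment in the labels. The series describes the mice as female, while the paper's methods state that both male and female mice were used in the study. The paper gives an age range for its mice, not by library. The labels give no ages or animal numbers, so p-values measure the spread between these libraries, which may come from separate or pooled animals. Values are normalized counts per gene (reads scaled between libraries by the authors), and the libraries summed to between 9576920 and 11492762 of them.

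Nucleosomes wrap DNA around a core of H2A, H2B, H3 and H4, and the linker histone H1 binds where the DNA enters and leaves. Cluster histone genes are known to be transcribed mainly in S phase, when new DNA needs new nucleosomes, while the genes of replacement variants such as H2afz and H3f3b are used throughout the cell cycle. Messenger RNAs of cluster histone genes are the known exception that ends in a short stem-loop in place of a poly(A) tail, and stem-loop binding protein (Slbp) holds that end. The libraries were made from total RNA with a kit that does not select poly(A) tails, so RNAs of this kind could be captured. In bulk RNA of a sorted population, more cells that use a gene and more of its RNA per cell cannot be told apart.

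The stem-loops that mark these RNAs were searched in the annotated transcripts, as 16 bases of which the first 6 pair with the last 6 around a loop of 4. The search also asked for a G next to the first base and for CTTT where the first arm meets the loop. A model said to hold no stem-loop therefore lacks this form. The stem-loops found are shown because they tell which gene models reach the known end of a histone RNA, with the paired bases in capitals. The first form was in 22 genes of all classes but H4, the second in 7 genes, all H4, form 3 in 6, forms 4 and 5 in 2 each, all H4, and the last in Hist2h2ac.
Form 1: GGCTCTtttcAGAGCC
Form 2: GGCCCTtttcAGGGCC
Form 3: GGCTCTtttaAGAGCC
Form 4: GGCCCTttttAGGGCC
Form 5: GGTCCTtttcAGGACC
Form 6: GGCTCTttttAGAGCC
In all, 40 of the 62 gene models held a stem-loop and 22 did not, and 13 of these 22 models hold at most 16 bases after the stop codon. Among 19946 other genes of the table, 2 held any of these 6 sequences (0.01%), Gm20634 and Trim17, which share sequence with Hist2 and Hist3 genes.

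Promoters of the classes carried different short motifs. Windows of 250 bases before the RefSeq start were found for 55 of the 62 genes, and 4 motifs were searched on either strand. The CCAAT box, common to many promoters, was searched by those letters. For the TATA box, which places the start of transcription in many genes, the letters searched were TATAAA. For the octamer, known from H2B promoters, they were ATTTGCAT. For the H1 box, known from linker histone promoters, they were AAACACA. The CCAAT box was in all 16 H2A, all 13 H2B and all 5 H1 windows and in 8 of 9 H3 windows, but in 3 of 12 H4 windows, against 33.8% of 32851 promoters of all genes. The octamer was in 6 H2A and 4 H2B windows and in no other class, against 1.6% of all promoters. In the 6 H2A windows the octamer lay on the strand opposite to the gene. Neighbouring H2A and H2B genes on opposite strands share part of their windows, so a site can count for both genes. Hist1h2ae and Hist1h2bg are such a case. The H1 box was in 4 of 5 H1 windows (Hist1h1b, Hist1h1c, Hist1h1e and Hist1h1t), each time starting 112 to 117 bases before the start, and in 6.25% of all promoters. The TATA box was in 26 of the 55 windows (47.3%), against 12.4% of all promoters. Both shares count a match at any place in the window. Some matches lay close before the start, as in Hist1h1b (28 bases). Others lay far from it, as in Hist1h4f (250 bases), or on the opposite strand, as in Hist1h2bp (212 bases).

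Stretches just before the start of 8 genes are given from RefSeq (GRCm38.p6), 5′ to 3′ on the strand of the named gene, with motif matches in capitals. They were chosen to show each class beside its values: an H1 gene with a large and an H1 gene with a small difference between the populations, stretches that run from an H2A start towards its H2B partner, an H3 and an H4 gene, and the genes of Hist3 and Hist4 that did not differ.
Hist1h1b, chr13:21780626-21780775, minus strand: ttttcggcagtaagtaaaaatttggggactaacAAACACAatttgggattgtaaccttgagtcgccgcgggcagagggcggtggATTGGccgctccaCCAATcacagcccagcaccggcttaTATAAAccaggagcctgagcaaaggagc
Hist1h1c, chr13:23738657-23738806, plus strand: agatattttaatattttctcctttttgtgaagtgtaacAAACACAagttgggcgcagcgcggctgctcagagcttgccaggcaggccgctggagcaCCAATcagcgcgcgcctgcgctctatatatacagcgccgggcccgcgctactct
Hist1h2ac (towards Hist1h2bc), chr13:23683960-23684209, minus strand: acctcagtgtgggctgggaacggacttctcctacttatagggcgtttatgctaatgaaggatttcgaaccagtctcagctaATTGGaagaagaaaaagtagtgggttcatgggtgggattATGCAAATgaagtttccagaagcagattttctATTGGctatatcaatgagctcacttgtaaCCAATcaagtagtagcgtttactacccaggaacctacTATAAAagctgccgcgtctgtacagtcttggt
Hist1h2ap (towards Hist1h2br), chr13:21833476-21833710, minus strand: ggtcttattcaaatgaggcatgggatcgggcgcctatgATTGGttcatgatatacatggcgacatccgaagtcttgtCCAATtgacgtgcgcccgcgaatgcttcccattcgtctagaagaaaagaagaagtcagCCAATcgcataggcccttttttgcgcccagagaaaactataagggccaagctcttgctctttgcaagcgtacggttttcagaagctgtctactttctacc
Hist1h3b, chr13:23752195-23752344, plus strand: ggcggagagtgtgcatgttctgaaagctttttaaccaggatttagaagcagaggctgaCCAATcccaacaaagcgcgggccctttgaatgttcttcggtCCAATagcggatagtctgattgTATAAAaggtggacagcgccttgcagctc
Hist1h4d, chr13:23581418-23581567, plus strand: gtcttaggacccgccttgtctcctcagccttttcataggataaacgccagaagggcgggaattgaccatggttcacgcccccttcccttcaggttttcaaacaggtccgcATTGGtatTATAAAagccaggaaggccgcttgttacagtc
Hist3h2a (towards Hist3h2bb-ps), chr11:58954513-58954684, plus strand: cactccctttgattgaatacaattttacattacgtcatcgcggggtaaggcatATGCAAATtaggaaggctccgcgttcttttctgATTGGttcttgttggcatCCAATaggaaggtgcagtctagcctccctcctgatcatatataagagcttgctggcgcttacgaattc
Hist4h4, chr6:136804432-136804581, minus strand: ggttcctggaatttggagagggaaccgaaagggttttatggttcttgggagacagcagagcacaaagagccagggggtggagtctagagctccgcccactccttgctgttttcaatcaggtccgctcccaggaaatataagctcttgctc
In the stretch of Hist1h1b, the H1 box, a CCAAT box, and a TATA box start 117, 53 and 28 bases before the start, and in that of Hist1h1c the H1 box and the CCAAT box start 112 and 54 bases before it. None of the 4 motifs was in the stretch of Hist4h4. A match is a string of letters and was not tested as a binding site.

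The central comparison asked how the histone genes differ between TNFR2+ and TNFR2- Tregs. Summed over the 62 genes, TNFR2+ libraries held 28286, 33745, 29994 and 23561 normalized counts and TNFR2- libraries 11649, 11116, 12386 and 13368. All TNFR2+ libraries lay above all TNFR2- libraries, and the ratio of the means was 2.38. Histone genes made up 0.233% to 0.328% of the counts of a TNFR2+ library and 0.0967% to 0.119% of those of a TNFR2- library.

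Gene by gene, 60 of the 62 passed the filter (a mean of at least 10 normalized counts over the 8 libraries) and were tested with limma on log2(normalized count + 1). Of these 60, 39 were higher in TNFR2+ Tregs at an adjusted p under 0.05, against 4.52% of all 13990 genes tested, and none was lower, against 3.39% of all genes. No histone gene was lower at an unadjusted p under 0.05 either, and 47 were higher, against 10.7% and 12.3% of all genes. The groups did not overlap, with TNFR2+ higher, for 43 of the 60, against 8.08% of all genes. The median log2 fold change was 1.59 over the 60 genes and -0.01 over all genes. Of 36 histone genes with a mean of at least 100 normalized counts, 32 were called higher, and of 24 with a lower mean, 7. The 4 genes above 100 that were not called were Hist3h2a, Hist1h3a, Hist1h4c and Hist4h4, named after their values were seen.

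**Figure D1:**
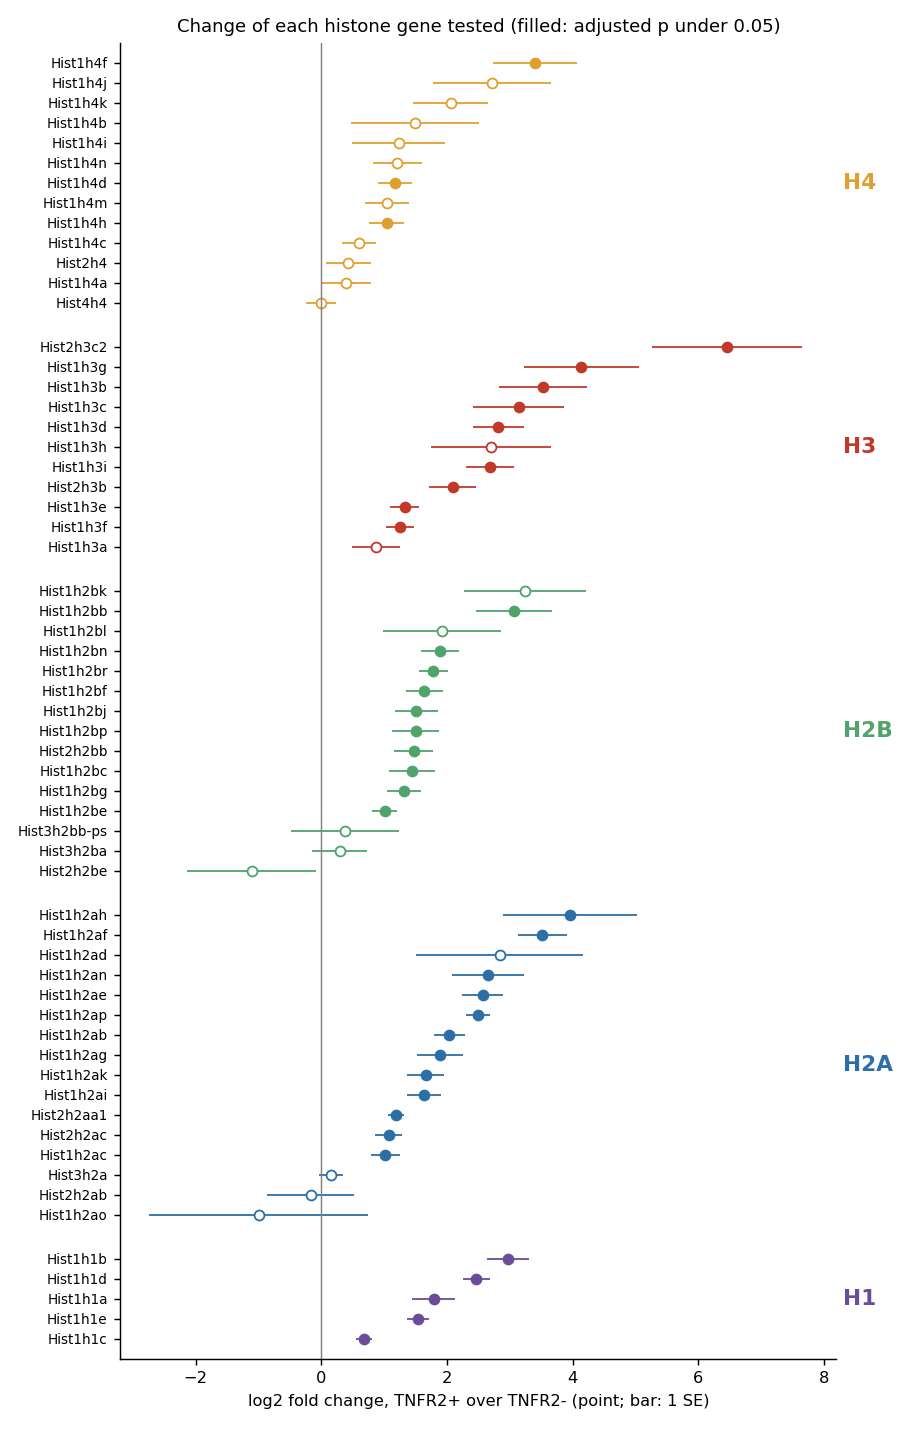
Log2 fold change of TNFR2+ over TNFR2- Tregs (x axis, on the log2(normalized count + 1) scale) for the 60 histone genes tested, by class; bars are 1 standard error and filled points have an adjusted p under 0.05. Of the 60 points, 39 are filled and all of those lie to the right of 0, between 0.68 and 6.46.

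Because copies of a class share much of their sequence, reads of a copy cannot always be placed. In 36 of the 62 genes, over 50% of the 31-base words of the transcript also occur in another histone gene, and in 6 genes under 10% of them occur in any other gene. Of the low values of genes with a single transcript, 69.7% to 96.5% in a library lay on whole reads (within 0.1 of a read, where chance gives 20%). Low values here were those up to 12 normalized counts. Of the histone values up to 60 normalized counts, 0% to 41.7% lay on whole reads. These percentages cannot be compared, because an error in the normalized counts taken per read adds up over higher values. They therefore do not show whether histone reads were split. Salmon divides a read that fits several copies between them. Sums over a class are less affected by that split and were put as features into the same test across all genes, where 4.27% of 13935 features were higher.

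H1 genes encode linker histones, and their sum was 12265, 13704, 14237 and 10023 normalized counts in TNFR2+ libraries and 5752, 5611, 6905 and 7550 in TNFR2- libraries. The groups did not overlap, and the sum was 0.96 ± 0.13 (SE) higher on the log2 scale (adjusted p = 0.001). Hist1h1c alone, which encodes a linker histone also made outside S phase, held 28.3% to 33.4% of the whole histone sum in TNFR2+ libraries and 42% to 49.1% in TNFR2- libraries. Without it the H1 difference was 1.94 on the log2 scale (adjusted p = 3.56e-05), and the ratio of the whole histone sums was 3.02.

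Hist1h1c had 8405, 9551, 10012 and 7263 normalized counts in TNFR2+ and 4894, 4732, 5746 and 6568 in TNFR2- libraries. On the log2 scale it was 0.68 ± 0.13 (SE) higher, the smallest difference among the 39 genes called (adjusted p = 0.00676, and 0.085 when the moderated variances had no intensity trend). Hist1h1e had 2045, 1935, 2138 and 1252 normalized counts against 547, 606, 680 and 657. All TNFR2+ libraries of either gene lay above all TNFR2- libraries, and Hist1h1e was 1.54 ± 0.18 higher on the log2 scale (adjusted p = 0.000382).

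Hist1h1d had 1284, 1487, 1616 and 1106 normalized counts in TNFR2+ and 211, 180, 369 and 255 in TNFR2- libraries, which is 2.47 ± 0.22 on the log2 scale (adjusted p = 7.9e-05). Hist1h1b, known as a linker histone of dividing cells, had 389, 521, 351 and 274 against 57.5, 35.1, 79.1 and 30.1, which is 2.97 ± 0.34 on the log2 scale (adjusted p = 0.000394). Hist1h1a had 142, 210, 108 and 121 against 42.2, 54.2, 30.2 and 37.4, which is 1.79 ± 0.34 (adjusted p = 0.00644). For each of the 3 the groups were apart, so all 5 H1 genes tested were called higher. The testis linker histone gene Hist1h1t did not pass the filter, with at most 11.6 normalized counts in a library. Of the 31-base words of an H1 gene, 0% (Hist1h1t) to 34.7% (Hist1h1e) occur in another histone gene. For Hist1h1e, 24.5% occur in the H2B gene Hist1h2be, whose model overlaps it. A sum by class does not remove a split of reads between those genes.

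**Figure D2:**
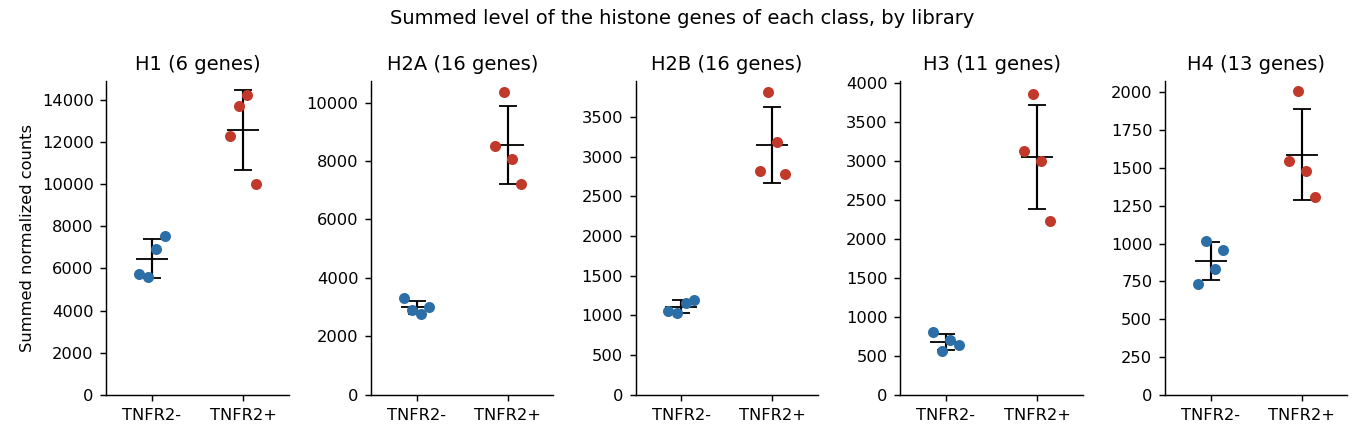
Summed normalized counts of the histone genes of each class (y axis, from 0) in the 4 TNFR2- and 4 TNFR2+ libraries; points are libraries, the wide mark is the mean and the bar 1 SD. In all 5 classes every TNFR2+ library lies above every TNFR2- library, with ratios of the means from 1.8 (H4) to 4.49 (H3).

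H2A genes summed to 8528, 10357, 8084 and 7214 normalized counts in TNFR2+ and 3306, 2894, 2785 and 3014 in TNFR2- libraries. The sum was 1.5 ± 0.12 (SE) higher on the log2 scale (adjusted p = 3.49e-05), and 12 of the 16 H2A genes were called. With only the 4 H2A genes that share at most 50% of their 31-base words, the difference was 0.84 (adjusted p = 0.00806), and this set holds Hist3h2a and Hist2h2ab, which were not called.

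The highest H2A counts belonged to Hist2h2aa1, with 2239, 2354, 2162 and 1807 normalized counts in TNFR2+ and 1044, 953, 931 and 816 in TNFR2- libraries. Hist1h2ap followed with 1694, 2236, 1665 and 1478 against 340, 370, 218 and 337. The groups were apart for these genes, which were 1.19 ± 0.13 (adjusted p = 0.000352) and 2.49 ± 0.19 (adjusted p = 3.19e-05) higher on the log2 scale. Per kilobase of transcript, the level of Hist2h2aa1 was 1598 normalized counts in TNFR2- Tregs and that of Hist1h2ap 656, while in TNFR2+ Tregs they were 3653 and 3669, beside 5646 for Hist1h1c. Hist2h2aa1 has 89.6% of its words in Hist2h2aa2 and Hist1h2ap has 93.4% in Hist1h2ao, so each value may hold reads of the copy.

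Hist1h2ac had 555, 894, 495 and 591 normalized counts in TNFR2+ and 351, 210, 310 and 370 in TNFR2- libraries. It was 1.02 ± 0.23 higher on the log2 scale (adjusted p = 0.0163). Hist1h2af had 521, 505, 350 and 325 against 48.3, 14.3, 56.8 and 39.3, which is 3.52 ± 0.39 on the log2 scale (adjusted p = 0.000352). The largest H2A fold change was that of Hist1h2ah, with 214, 122, 131 and 227 against 4.01, 26.6, 95.7 and 0, which is 3.96 ± 1.06 (adjusted p = 0.0362). The groups were apart for all 3, but the TNFR2- values of Hist1h2ah ranged from a listed 0 to 95.7, and its log2 fold change from 2.82 to 5.02 when a library was left out.

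The other H2A genes called were Hist1h2ae (log2 fold change 2.57, adjusted p = 0.000551), Hist1h2an (2.65, 0.0126), Hist1h2ab (2.04, 0.000417), Hist1h2ag (1.89, 0.0061), Hist1h2ak (1.66, 0.00383), Hist1h2ai (1.64, 0.00278) and Hist2h2ac (1.07, 0.00791). Hist1h2af, Hist1h2ah, Hist1h2ai, Hist1h2ak, Hist1h2an and Hist2h2ab are among the models that end close to the stop codon and hold no stem-loop. The 4 H2A genes not called were Hist1h2ad, Hist1h2ao, Hist2h2ab and Hist3h2a.

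Hist1h2ao, the near copy of Hist1h2ap, was listed at 0 in TNFR2+ replicates 1 and 4 and in TNFR2- replicates 1 and 2, and had 25.2 and 14.2 in the other TNFR2+ and 95 and 66.4 in the other TNFR2- libraries. Its log2 fold change was -1.0 ± 1.75 (adjusted p = 0.786), and it was 0.14 without TNFR2- replicate 3. Hist2h2ab had 30.6, 8.95, 39.8 and 38.7 against 13.3, 79.3, 15.1 and 43.2, which gave -0.17 ± 0.69 on the log2 scale (adjusted p = 0.918) and turned to 0.30 without TNFR2+ replicate 2 or without TNFR2- replicate 2. For Hist1h2ad a single TNFR2+ library had 229 normalized counts and the other 3 had 5.08, 32 and 38.8. The groups overlapped for these 3 genes.

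H2B genes summed to 2820, 3813, 3189 and 2782 normalized counts in TNFR2+ and 1052, 1036, 1157 and 1199 in TNFR2- libraries. The groups were apart, the sum was 1.49 ± 0.13 (SE) higher on the log2 scale (adjusted p = 6.29e-05), and 10 of 15 H2B genes tested were called. H2B pairs with H2A in the nucleosome, and the ratio of the H2A sum to the H2B sum was 2.72 ± 0.218 (SD, n = 4) in TNFR2+ and 2.71 ± 0.328 (SD, n = 4) in TNFR2- libraries.

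Hist1h2be had 490, 642, 710 and 451 normalized counts in TNFR2+ and 245, 243, 306 and 332 in TNFR2- libraries, which is 1.01 ± 0.2 on the log2 scale (adjusted p = 0.0081). Hist1h2br had 604, 879, 694 and 423 against 206, 182, 179 and 163, which is 1.78 ± 0.23 (adjusted p = 0.000551). Hist1h2bg had 351, 451, 257 and 379 against 92.7, 185, 167 and 139, which is 1.31 ± 0.27 (adjusted p = 0.00872). All TNFR2+ libraries were above all TNFR2- libraries for each of these H2B genes, which had the highest H2B counts.

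The largest H2B fold change that was called was that of Hist1h2bb, with 209, 269, 311 and 288 against 47.6, 6.4, 98.4 and 27.6 normalized counts (log2 fold change 3.07 ± 0.61, adjusted p = 0.00759, and 0.0617 without an intensity trend). Without TNFR2- replicate 2, the library at 6.4, it was 2.37. The others called were Hist1h2bn (log2 fold change 1.89, adjusted p = 0.00191), Hist1h2bf (1.64, 0.00482), Hist1h2bj (1.51, 0.0161), Hist1h2bp (1.5, 0.0288), Hist2h2bb (1.47, 0.011) and Hist1h2bc (1.44, 0.0286). Hist1h2bk had a log2 fold change of 3.24 but an SE of 0.97 (adjusted p = 0.0604), with a listed 0 in TNFR2- replicate 3 and 80.1 to 245 normalized counts in TNFR2+ libraries. Without TNFR2- replicate 3 its log2 fold change was 1.96 and its adjusted p 0.0119.

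In all 4 TNFR2- libraries Hist1h2bq was listed at 0, and it had 24.8, 18.5, 13.5 and 0 in TNFR2+ libraries. It did not pass the filter, and 98.3% of its words occur in Hist1h2br. Hist2h2be had 28.9, 39.2, 0 and 12.5 against 23.1, 46.1, 13.7 and 20.1 normalized counts, which gave -1.11 ± 1.03 on the log2 scale (adjusted p = 0.573), the lowest of all members, and 0.06 without TNFR2+ replicate 3, the library at 0. The models of Hist1h2bl (log2 fold change 1.92, adjusted p = 0.245) and of the pseudogene Hist3h2bb-ps (0.38, 0.836) hold no stem-loop, as do those of Hist1h2bc, Hist1h2bn, Hist1h2bq, Hist1h2br, Hist2h2bb and Hist2h2be.

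H3 genes, whose product carries most of the known histone tail marks, summed to 3124, 3859, 3001 and 2234 normalized counts in TNFR2+ and 806, 560, 710 and 646 in TNFR2- libraries. The sum was 2.15 ± 0.17 (SE) higher on the log2 scale (adjusted p = 3.49e-05), and 9 of 11 H3 genes were called. The difference was 1.88 without Hist2h3c2 and 2.82 with Hist1h3d alone, the only H3 gene that shares at most 50% of its words (adjusted p = 0.00124 for the latter).

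Hist2h3c2 had 609, 832, 784 and 346 normalized counts in TNFR2+ libraries, and 108, 0, 0 and 19.8 in TNFR2- libraries. The fitted log2 difference, 6.46 ± 1.2 (adjusted p = 0.00508, and 0.0617 without an intensity trend), depends on a pair of listed zeros and on the pseudocount, and ranged from 5.54 to 7.79 when a library was left out. Of its words, 64.2% occur in Hist2h3c1 and in Gm20634, a gene model over Hist2h3c1 and Hist2h2aa2 that had 27.2, 84.1, 117 and 42 normalized counts in TNFR2+ and 68.5, 56.2, 96.3 and 153 in TNFR2- libraries. With Gm20634 added to the H3 sum, the H3 difference was 2.00 (adjusted p = 6.29e-05).

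Hist1h3b had 380, 580, 535 and 414 normalized counts in TNFR2+ and 99.4, 44.8, 98.4 and 5 in TNFR2- libraries, which is 3.53 ± 0.70 on the log2 scale (adjusted p = 0.00749, and 0.0691 without an intensity trend). Without TNFR2- replicate 4, the library at 5, it was 2.61. Hist1h3e had 468, 443, 476 and 365 against 219, 210, 120 and 162, which is 1.33 ± 0.23 (adjusted p = 0.00344). Hist1h3g, with 21.9, 73.9, 37.5 and 22.7 against 2.02, 4.34, 0 and 0, had the second largest rise of all members at 4.14 ± 0.92 (adjusted p = 0.015). The groups were apart for all 3, and the TNFR2- level of Hist1h3g was near the lowest that these libraries record.

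The other H3 genes called were Hist1h3c (log2 fold change 3.14, adjusted p = 0.0187), Hist1h3d (2.82, 0.00118), Hist1h3i (2.69, 0.001), Hist2h3b (2.09, 0.00399) and Hist1h3f (1.25, 0.00402). Hist1h3f varied least, with 334 to 338 normalized counts in TNFR2+ libraries and 102 to 174 in TNFR2- libraries. Hist1h3h (2.70, 0.107) and Hist1h3a (0.87, 0.186) were not called, and Hist1h3a had 165, 229, 143 and 78.3 normalized counts against 93.2, 47, 107 and 78.4, with overlap between the groups. Models without a stem-loop were those of Hist1h3g, Hist1h3h, Hist1h3i and Hist2h3b.

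H4 genes summed to 1549, 2011, 1482 and 1309 normalized counts in TNFR2+ and 733, 1015, 830 and 958 in TNFR2- libraries. The groups were apart, and the sum was 0.84 ± 0.16 (SE) higher on the log2 scale (adjusted p = 0.0069). This was the one class sum whose call was lost when the moderated variances had no intensity trend (adjusted p = 0.0622). Of 13 H4 genes, 3 were called: Hist1h4f (log2 fold change 3.4, adjusted p = 0.00769), Hist1h4d (1.17, 0.0177) and Hist1h4h (1.04, 0.0361).

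Hist1h4c had the highest H4 counts, with 278, 378, 173 and 202 in TNFR2+ and 143, 155, 200 and 157 in TNFR2- libraries. TNFR2+ replicate 3 lay within the TNFR2- range, and the log2 fold change was 0.60 ± 0.27 (adjusted p = 0.206). Hist1h4d had 224, 376, 221 and 245 normalized counts against 96.4, 102, 106 and 166, with no overlap. Hist4h4 had 193, 173, 195 and 187 against 150, 215, 153 and 243, and the TNFR2+ libraries lay inside the TNFR2- range.

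Hist1h4k (log2 fold change 2.06, adjusted p = 0.0556), Hist1h4j (2.71, 0.0992) and Hist1h4m (1.04, 0.0944) had groups that did not overlap, with adjusted p above the threshold. The remaining H4 genes, Hist1h4n (1.21, 0.0806), Hist1h4i (1.23, 0.354), Hist1h4b (1.49, 0.424), Hist2h4 (0.43, 0.528) and Hist1h4a (0.39, 0.609), had overlapping groups. The models of Hist1h4a and Hist1h4k hold no stem-loop. All 13 H4 genes encode nearly the same protein in the textbook account, and their fold changes on the log2 scale spanned 0.00 to 3.4.

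The proportions of the classes were compared as shares of the histone sum. The share of H3 in the histone counts was 11%, 11.4%, 10% and 9.48% in TNFR2+ libraries and 6.92%, 5.04%, 5.73% and 4.83% in TNFR2- libraries. That of H4 was 5.48%, 5.96%, 4.94% and 5.55% against 6.3%, 9.13%, 6.7% and 7.17%. H3 shares were therefore above, and H4 shares below, those of every library of the other population.

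The ratio of the H3 sum to the H4 sum was 2.02, 1.92, 2.02 and 1.71 in TNFR2+ and 1.1, 0.552, 0.855 and 0.674 in TNFR2- libraries, with no overlap, while the ratio of H2A to H2B overlapped. The H1 share was 43.5% ± 2.89 (SD, n = 4) in TNFR2+ and 53% ± 3.62 (SD, n = 4) in TNFR2- libraries, and outside Hist1h1c the other H1 genes took 18.7% ± 2 and 14.6% ± 2.04 (SD, n = 4 each) of the remaining counts. These are shares of normalized counts, not corrected for transcript length or for words shared between copies, and are given without a test.

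**Figure D3:**
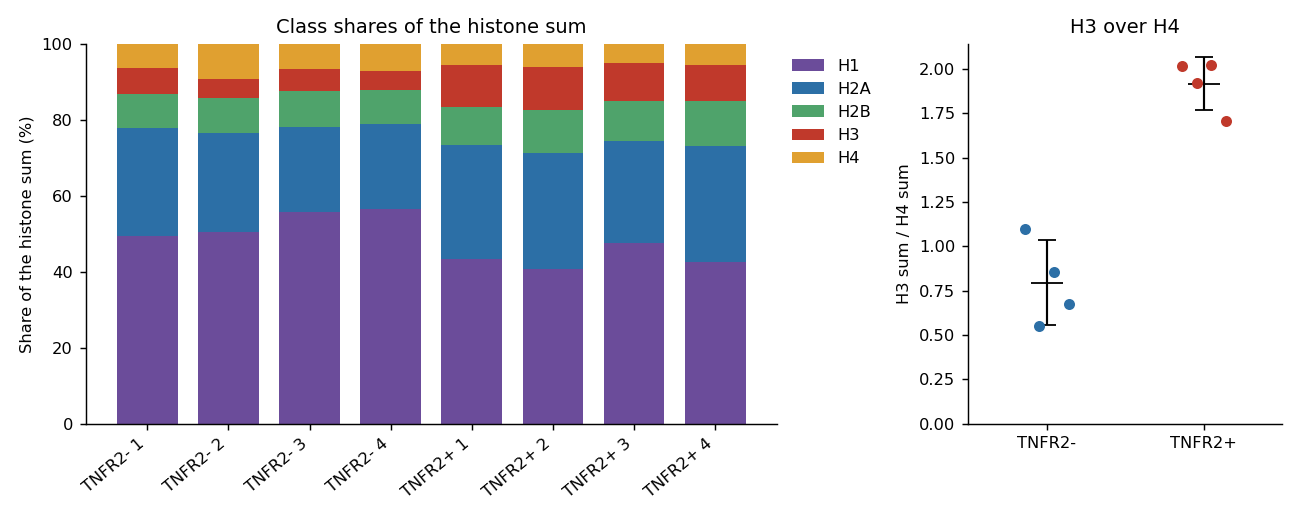
Left, share of each class in the summed histone counts of each library (y axis, percent; bars stack to 100). Right, ratio of the H3 sum to the H4 sum, with points for libraries, the mean and 1 SD. H3 takes 9.48% to 11.4% of TNFR2+ and 4.83% to 6.92% of TNFR2- libraries, and the ratio to H4 is 1.71 to 2.02 against 0.552 to 1.1.

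Summed by gene cluster, Hist1 summed to 23362, 28441, 25280 and 19745 normalized counts in TNFR2+ and 9410, 8905, 10493 and 11181 in TNFR2- libraries, which is 1.27 ± 0.12 (SE) on the log2 scale (adjusted p = 0.000107). Hist2 summed to 4301, 4601, 4080 and 3116 against 1631, 1502, 1421 and 1516, which is 1.39 ± 0.13 (adjusted p = 0.000107). In either cluster the groups were apart, 34 of 48 Hist1 genes and 5 of 8 Hist2 genes tested were called, and 4.25% of 13934 features of that fit were higher.

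Hist3 summed to 431, 530, 438 and 514 normalized counts in TNFR2+ and 458, 493, 319 and 428 in TNFR2- libraries, which is 0.18 ± 0.18 on the log2 scale (adjusted p = 0.605). Hist4, which is Hist4h4 alone, differed by 0.00 ± 0.24 (adjusted p = 0.994). The groups overlapped in these clusters, and none of their 4 genes passed an unadjusted p of 0.05. Most Hist3 counts were those of Hist3h2a, with 398, 433, 398 and 453 against 415, 456, 272 and 389 (log2 fold change 0.16 ± 0.19, adjusted p = 0.679). Hist3h2ba had 0.29 ± 0.44 on the log2 scale (adjusted p = 0.748). The difference between clusters, like that between classes, was not tested.

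**Figure D4:**
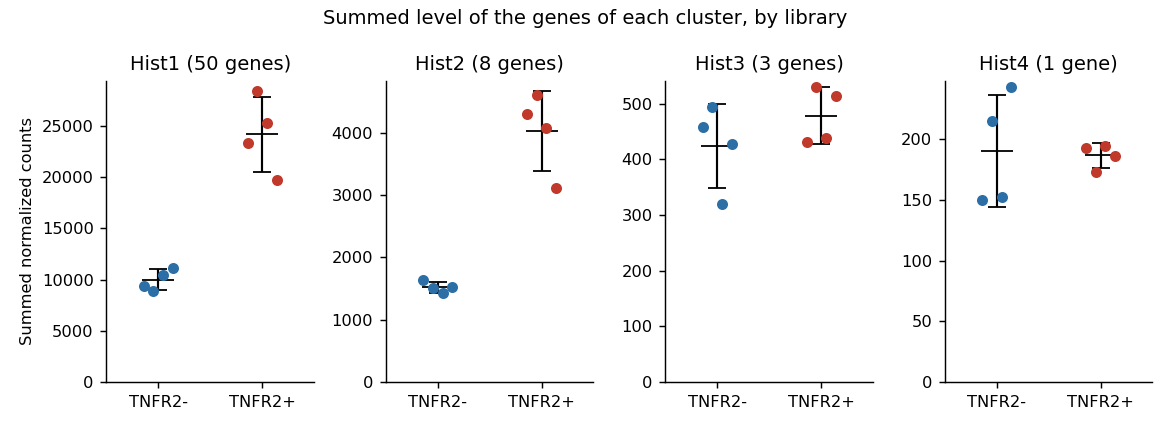
Summed normalized counts of the genes of each cluster (y axis, from 0) by library; points are libraries, the wide mark is the mean and the bar 1 SD. The populations are apart in Hist1 and Hist2, with ratios of the means of 2.42 and 2.65, and overlap in Hist3 and Hist4, with 1.13 and 0.982.

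Within Hist1, genes lie in 3 stretches of chromosome 13 (GRCm38). The 16 genes tested at chr13:21715763-21837530 had a median log2 fold change of 1.91, with 9 called, and the 5 at chr13:22035164-22043676 a median of 1.89, with 3 called. The 27 at chr13:23531050-23764406, where Hist1h1c lies, had a median of 1.54, with 22 called. The ratios of the summed means were 3.91, 4.08 and 2.15, so higher levels in TNFR2+ Tregs were found along the whole cluster.

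H2A and H2B genes often lie head to head with their starts close together, and the stretches of Hist1h2ac, Hist1h2ap and Hist3h2a given above run from such starts. There were 12 such pairs with starts within 1000 bases, and in 6 of them both genes were called higher, in 4 of them 1 gene, and in 2 neither. The starts of Hist1h2ap and Hist1h2br are 235 bases apart, and their log2 fold changes were 2.49 and 1.78. Those of Hist1h2ac and Hist1h2bc are 250 bases apart, with 1.02 and 1.44. The pairs with no call were Hist1h2bq with Hist1h2ao and Hist3h2bb-ps with Hist3h2a, whose starts lie 172 bases apart. In the pair of Hist2h2ac and Hist2h2be, Hist2h2ac was called (1.07) and Hist2h2be was not (-1.11).

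The length of the gene model after the stem-loop varied from 3 to 4884 bases. Of 20 genes tested whose model ends within 100 bases of the stem-loop, 13 were called, with a median log2 fold change of 1.58. Of 19 whose model goes on for longer, 12 were called, with a median of 1.23, and of the 21 without a stem-loop, 14, with a median of 1.89. In 7 genes the model goes on for over 1000 bases, and these had a median of 1.01. Among them Hist1h1d (4884 bases) had 2.47, while Hist4h4 (2445 bases), Hist3h2a (1643) and Hist2h4 (1257) were not called.

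Genes that share over 50% of their words with another histone gene were called in 25 of 35 cases (median 1.89) and the others in 14 of 25 (median 1.04). These are counts over members of unlike expression, given as a description. The 10 genes with the octamer in the promoter window had a median log2 fold change of 1.76, and the 43 others tested that had a window 1.66. With and without the TATA box at any place in the window the medians were 1.84 (26 genes) and 1.64 (27 genes). Of the 9 H4 genes without CCAAT, 2 were called, and of the 3 with it, 1.

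**Figure D5:**
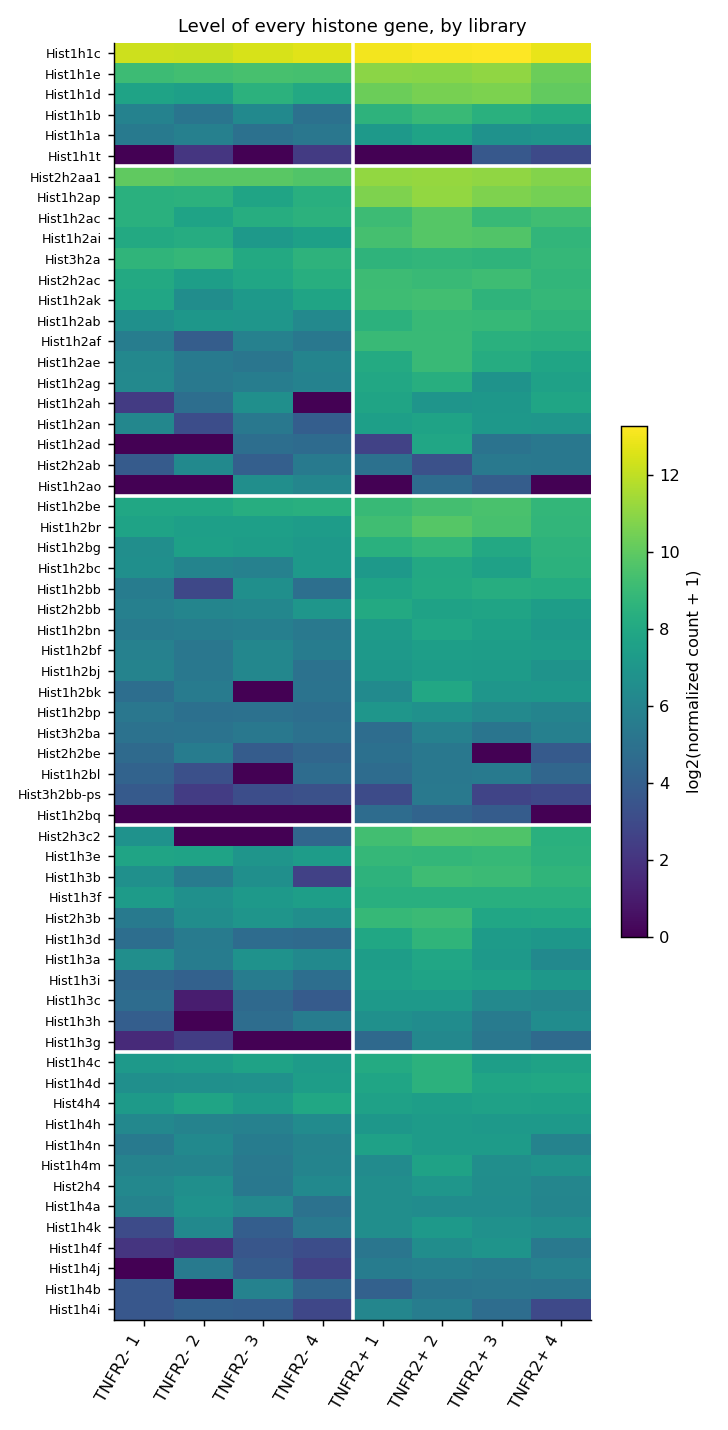
Log2(normalized count + 1) of all 62 histone genes (rows, by class and falling mean) in the 4 TNFR2- and 4 TNFR2+ libraries (columns); lighter is higher. Most rows are lighter in the TNFR2+ columns, and 43 of the 60 genes tested have no overlap between the populations.

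Of 10 genes tested of histone variants encoded outside the clusters, 3 were higher and none lower, against 4.52% and 3.39% of all genes (5 and none at an unadjusted p under 0.05, against 12.3% and 10.7%). Their median log2 fold change was 0.52, and the difference from the cluster genes was not tested. H2afz, whose product marks promoters, had 2534, 2717, 2279 and 2104 normalized counts in TNFR2+ and 1412, 1032, 1181 and 1247 in TNFR2- libraries (0.99 ± 0.14, adjusted p = 0.000912). H2afx, whose product marks DNA breaks, had 1.00 ± 0.23 (adjusted p = 0.0198), and H1f0, a replacement linker histone, had 1.2 ± 0.27 (adjusted p = 0.017). The calls of H2afx and H1f0 were lost without TNFR2+ replicate 1, 2 or 3 (adjusted p from 0.051 to 0.0742), and that of H1f0 also without TNFR2- replicate 2 (0.0539).

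Of the genes of the replacement H3, H3f3b had 9401, 8842, 8924 and 7066 normalized counts in TNFR2+ and 8233, 7916, 8394 and 8087 in TNFR2- libraries, which is 0.06 ± 0.1 on the log2 scale (adjusted p = 0.78). H3f3a had 1877, 2365, 2924 and 2148 against 1869, 1880, 1766 and 2344, which is 0.23 ± 0.15 (adjusted p = 0.381). The groups overlapped for H3f3a and H3f3b, unlike the sum of the cluster H3 genes.

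Of 25 factors tested that transcribe and process histone RNAs, 1 was higher and 1 lower, with a median log2 fold change of 0.00. These shares are close to the 4.52% and 3.39% of all genes. Slbp, the stem-loop binding protein, had 1013, 804, 750 and 781 normalized counts in TNFR2+ and 805, 640, 850 and 610 in TNFR2- libraries (0.21 ± 0.16, adjusted p = 0.496). Npat, which activates cluster histone genes, had 402, 403, 401 and 366 against 387, 387, 346 and 457 (0.00 ± 0.17, adjusted p = 0.998). The groups overlapped for Slbp and Npat.

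Lsm11, a part of the U7 particle that cuts histone RNAs, had 17.9, 47.7, 13.3 and 16.8 normalized counts in TNFR2+ and 100.2, 58, 136 and 78.5 in TNFR2- libraries (log2 fold change -2.03 ± 0.49, adjusted p = 0.0213). Its call was lost without TNFR2+ replicate 1 or 3 or TNFR2- replicate 1 or 3 (adjusted p from 0.0525 to 0.0601). Mif4gd, which helps translate histone RNAs, was higher by 0.75 ± 0.21 (adjusted p = 0.0482). That call was lost without TNFR2+ replicate 1, 2 or 3 or TNFR2- replicate 1, 3 or 4 (adjusted p from 0.0643 to 0.134), so the only 2 calls of this list depended on the libraries used.

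Histone chaperones hand new histones to DNA, and of 29 tested 3 were higher and 1 lower, against 4.52% and 3.39% of all genes. At an unadjusted p under 0.05, 9 were higher and 3 lower, against 12.3% and 10.7% of all genes. Chaf1a, the large subunit of the assembly factor that works at replication forks, had 240, 331, 232 and 180 normalized counts in TNFR2+ and 34.6, 49.7, 70.6 and 54.5 in TNFR2- libraries (log2 fold change 2.22 ± 0.31, adjusted p = 0.00098). Nap1l1, a chaperone of H2A and H2B, had 0.72 ± 0.15 (adjusted p = 0.0109, and 0.0849 without an intensity trend), and Ssrp1, a subunit of FACT, had 0.63 ± 0.16 (adjusted p = 0.0264). Ubn1, of the complex that deposits the replacement H3, was lower, at -0.48 ± 0.13 on the log2 scale (adjusted p = 0.0317). Ubn1 lost its call in 7 of 8 fits that left a library out (all but the fit without TNFR2- replicate 3), and Ssrp1 without TNFR2+ replicate 1, 2 or 3 or TNFR2- replicate 1 or 2, with adjusted p between 0.0507 and 0.0936 over these fits. The median of the list was 0.19.

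DNA replication genes were counted in the same way. Of 26 tested, 10 were higher and none lower, against 4.52% and 3.39% of all genes (15 and 0 at an unadjusted p under 0.05, against 12.3% and 10.7%), with a median log2 fold change of 1.01. The largest among the called genes were Mcm10 (4.71, adjusted p = 0.0012), Cdc6 (1.98, 0.0138), Prim1 (1.70, 0.0101), Rrm2 (1.68, 0.0307), Mcm5 (1.55, 0.00112) and Mcm6 (1.51, 0.000494), which load or run the replication machinery or make its nucleotides. Mcm10 had 185, 191, 86.2 and 177 normalized counts in TNFR2+ and 3.78, 2.67, 24.9 and 1.64 in TNFR2- libraries. The size of its fold change therefore depends on a few reads and on the pseudocount. The mean log2 value of the 26 genes was 8.24, 8.45, 8.06 and 8 in TNFR2+ and 7.35, 7.03, 7.34 and 6.99 in TNFR2- libraries. The groups did not overlap. Within TNFR2+ Tregs, replicate 2 had the highest mean and histone sum and replicate 4 the lowest of either, while within TNFR2- Tregs replicate 4 had the lowest mean and the highest histone sum. Hist1h1c made up 49.1% of the histone sum of TNFR2- replicate 4. Without Hist1h1c, the sums of TNFR2- replicates 1 to 4 lay close together, at 6756, 6384, 6640 and 6800 normalized counts. The proliferation marker Mki67 had 4120, 5041, 3553 and 2622 against 837, 361, 814 and 295 (2.84, adjusted p = 0.000352). The part of the number of cycling cells in the histone difference was not tested.

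Tnfrsf1b, which encodes TNFR2, had 3148, 1840, 2631 and 2383 normalized counts in TNFR2+ and 1266, 1563, 1177 and 1277 in TNFR2- libraries (0.90, adjusted p = 0.00449), so the labels and the RNA went the same way. Of the Treg markers, Foxp3 had 2812 to 3313 normalized counts in TNFR2+ and 3292 to 4033 in TNFR2- libraries (-0.23, adjusted p = 0.232). All 6 Treg markers were tested, and 3 (Ctla4, Ikzf2 and Cd3e) were higher and none lower, against 4.52% and 3.39% of all genes. Il2ra, which encodes a chain of the IL-2 receptor, had 2645, 3070, 2561 and 2690 normalized counts in TNFR2+ and 3219, 3990, 3222 and 3497 in TNFR2- libraries, with no overlap (-0.34, adjusted p = 0.086). The summed level of 7 B cell and plasma cell markers in the table was 3581 to 5669 in TNFR2+ and 1688 to 2612 in TNFR2- libraries. Nearly all of it was Ighm (1.27, adjusted p = 0.000745). Means in TNFR2+ and TNFR2- libraries were 57.5 and 55.4 for Ms4a1, 38.7 and 24.7 for Cd79b, and 9.31 and 0.378 for Sdc1. For Cd79a, Pax5 and Jchain they were 1.19 and 3.17, 4.72 and 12.7, and 16.8 and 25.3. The summed level of 4 cytotoxic lymphocyte markers was 106 to 188 and 47.4 to 104, with Nkg7 higher (3.19, adjusted p = 0.00927). Klrb1c had means of 12.4 and 4.88, Cd8b1 of 46.6 and 47.8 and Cd8a of 6.95 and 9.57. The 3 myeloid markers summed to at most 30.4 and the 1 erythroid marker to at most 12.1, and Csf1r was listed at 0 in all TNFR2+ libraries. The part of other cells in the histone difference was not tested.

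The calls of single histone genes held unevenly when a library was left out. Of the 39 genes called, 29 kept an adjusted p under 0.05 in all 8 fits without a library, and 25 did so in every alternative tried. TNFR2+ replicate 2 mattered most: without it 29 histone genes were called, and Hist1h2ac (adjusted p = 0.0605), Hist1h2ah (0.0735), Hist1h2an (0.0503), Hist1h2bc (0.0852), Hist1h2bj (0.0621), Hist1h2bp (0.0983), Hist1h3c (0.0673), Hist1h3g (0.0943), Hist1h4d (0.0712) and Hist1h4h (0.11) were above the threshold. Hist1h4h was above it also without any library of either group but TNFR2- replicate 4, and Hist1h2ah without any library but TNFR2- replicates 2 and 3. Hist1h2bc was so without TNFR2+ replicate 3 or 4 or TNFR2- replicate 2 or 3, Hist1h2bp without TNFR2+ replicate 1 or 3 or TNFR2- replicate 2 or 4, Hist1h2bj and Hist1h3g without TNFR2+ replicate 3, Hist1h3c without TNFR2+ replicate 1 and Hist1h4d without TNFR2- replicate 2. Without an intensity trend, 10 calls were lost: those of Hist1h1c, Hist1h2bb, Hist1h3b and Hist2h3c2, given above, and those of Hist1h2ac (adjusted p = 0.0774), Hist1h2ah (0.134), Hist1h2an (0.0658), Hist1h2bc (0.0899), Hist1h3c (0.0754) and Hist1h4d (0.0525). The sums of the 5 classes and of Hist1 and Hist2 stayed below 0.05 in all 8 fits without a library.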

How the data were processed

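RNA of TNFR2+ and TNFR2- Tregs (4 libraries each) was analysed. The authors prepared stranded total RNA libraries, checked reads with FastQC 0.11.8, trimmed them with Trim Galore, quantified transcripts with Salmon 1.3.0 (Ensembl GRCm38) and scaled the gene totals with DESeq2 1.28 in R 4.0, per the submitters' processing notes, and deposited the normalized signal per gene, not on a log scale. The values are not whole reads, so no count model was fitted. In 2806 single-transcript genes over 1500 bases the step of 1 read gave estimated depths of 9100000 to 12110000 reads per library, which limits precision for genes near 0.

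Symbols, models and transcripts came from the GENCODE M21 annotation of GRCm38 (20008 of 20172 identifiers matched) and promoters from RefSeq. Genes with a mean of at least 10 were tested as log2(normalized count + 1) with limma 3.58.1 in R 4.3.3 (moderated variances with an intensity trend, two-sided, Benjamini-Hochberg adjustment over all features, threshold 0.05), after a test on simulated data. The test has TNFR2+ over TNFR2- Tregs, all 8 libraries and no covariate. Class and cluster sums replaced their members in refits of the whole table. Figures were drawn with matplotlib 3.10.9 in Python 3.11.15.

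The members and gene lists were chosen with earlier results of these data known. Named genes are members with an adjusted p under 0.05, the highest by count per class, the 3 largest rises and falls, members at 0 in all libraries of a group and members without a stem-loop, and, of the other lists, up to 6 called genes and some fixed ones. Alternatives were other pseudocounts and filters, no intensity trend, other scaling, a replicate block and leaving out each library. Those without the highest member, with low sharing members and with Gm20634 were chosen after seeing the data. No library was left out of the main test.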

Additional observations from a re-analysis of the deposited data

Results flagged for a closer look

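In 142 groups of 4 libraries (each class sum, cluster sum and member in each population), 7 held a library far from the other 3, where chance alone flags about 1 in 20. TNFR2+ replicate 2 was high for Hist1h2ad (229, others 5.08 to 38.8 normalized counts), Hist1h4d (376, others 221 to 245) and Hist3h2bb-ps (41.1, others 5.62 to 7.26). Hist1h4d was also high in TNFR2- replicate 4 (166, others 96.4 to 106). Hist1h3d was high in TNFR2- replicate 2 (45.9, others 23.1 to 26.6). Hist1h4b was low in TNFR2+ replicate 1 (16.6, others 35.1 to 37.4), and Hist1h4m was low in TNFR2- replicate 3 (40.2, others 61 to 62.6). No class or cluster sum was among them.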

How the results depend on the processing

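The number of histone genes called higher was 29 to 41 over all alternatives, with none called lower: 39 with a pseudocount of 0.5, without a filter, or with a median ratio over non-histone genes, 41 with a pseudocount of 5, 37 with a mean of at least 50, 29 with no intensity trend and 29 to 38 without a library. Over all genes, 283 were higher and 182 lower with no intensity trend, 339 to 777 and 279 to 547 without a library, and 904 and 309 with total scaling, against 633 and 474. Total scaling moved the median of all genes by 0.129 on the log2 scale, and the class sums were then 1.09, 1.63, 1.62, 2.28 and 0.97 (H1, H2A, H2B, H3, H4). The H4 sum kept 0.84 but not its call with no intensity trend (adjusted p = 0.0622). The Hist4 sum had no direction, from -0.10 to 0.13 without a library, as had Hist4h4 (-0.01, -0.02, -0.10 and -0.09 without TNFR2+ replicate 1 or 3 or TNFR2- replicate 1 or 3). Hist2h2ab turned to 0.30 without TNFR2+ or TNFR2- replicate 2 and to 0.01 without TNFR2- replicate 4, Hist1h2ao to 0.14 without TNFR2- replicate 3, and Hist2h2be to 0.06 without TNFR2+ replicate 3. Their ranges without a library were -0.53 to 0.30, -2.06 to 0.14 and -1.72 to 0.06. Npat lay at -0.01 without TNFR2+ replicate 1, 2 or 3 or TNFR2- replicate 1 or 2 and at -0.06 without TNFR2- replicate 3, with 0.07 as the highest such value. The causes were not tested.

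Deviations of same-numbered libraries correlated by -0.04 to 0.00, and those of unlike-numbered libraries by -0.10 to 0.08. Such values cannot tell whether the numbers pair the libraries. With a replicate block, 40 histone genes were called higher, and the class sums kept 0.96, 1.5, 1.49, 2.15 and 0.84 (H1, H2A, H2B, H3, H4). Hist1h4h lost its call (adjusted p = 0.0669), and Hist1h2bk (0.0344) and Hist1h4k (0.0389) gained it. Over all genes the block gave 675 higher and 508 lower. Depth limits members near 0, where a few reads decide a value.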
